A study of Mus musculus with 7 samples.

Results

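Myelin is the lipid-rich sheath that oligodendrocytes wrap around axons in the brain. A set of structural proteins holds its membrane layers together, dedicated enzymes make its sphingolipids, and adhesion proteins fix it to the axon beside the nodes of Ranvier, where the action potential is renewed. In cortex, the mature cells that express these genes lie mostly in the deep layers and in the white matter beneath them. Here, 31 genes of myelin and of mature oligodendrocytes were examined, matched by symbol among the 23413 genes of the count tables. They were grouped by the role of their products: compact myelin membrane (5 genes), non-compact and surface myelin (5), myelin lipid synthesis (4), transcription factors (2), iron, pH and cofactor metabolism (3), gap junctions (2), node, paranode and axon contact (3), receptors (4) and other oligodendrocyte proteins (3).

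RNA was sequenced from the cortex of APP/PS1 mice, a model of cerebral amyloidosis in which every mouse carries the human APPswe and PSEN1dE9 transgenes, so that no library came from a wild-type mouse. Carbohydrate supplied 74% and fat 16% of the energy in the control diet (CD, called SD in the sample labels; n = 4). In the ketogenic diet (KD; n = 3) carbohydrate supplied under 0.5% and fat 90%, and protein supplied 10% in both. Mice started the diets at 6 months of age, were housed singly and were examined at 13 months. Each library came from 1 mouse, and the sex of these mice was not used.

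Libraries held between 22272883 and 36614954 counted reads, and all 31 genes passed the filter on low counts. The libraries did not stand alike in these genes. Summed over the 31 genes, the level was 4599, 4057, 1588 and 4502 CPM (each count scaled to a library total of 1000000) in CD replicates 1 to 4, and 4425, 2486 and 1506 CPM in KD replicates 1 to 3. CD replicate 3 and KD replicate 3 thus stood far below the others, with KD replicate 2 between them. The corresponding means were 3687 ± 1419 CPM for CD and 2806 ± 1485 CPM for KD (SD), so the spread within each diet was larger than the difference between them. In bulk tissue, fewer oligodendrocytes or less white matter in a sample cannot be told apart from less of each RNA per cell.

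The tissue label was checked against the defining genes of other cells. Slc17a7, Camk2a and the other markers of cortical excitatory neurons were present in every library, their summed level lying between 1361 and 2019 CPM. Among genes of Schwann cells, which make myelin outside the brain, Pmp2 reached at most 0.061 CPM and failed the filter on low counts. Prx and Ncmap stayed below 1 CPM, and Egr2, which active neurons also express, reached 20.01 CPM.

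Levels per length were compared first, as CPM divided by the exon length of each gene in kilobases (kb), with lengths from the GENCODE annotation. This length joins all annotated exons of a gene and is not that of 1 transcript, and the order depends on it. It was 8.469 kb for Mbp and 3.32 kb for Trf. By CPM alone, Mbp had the highest CD mean of the 31 genes (779, against 468 for Trf). Trf, which encodes the iron carrier transferrin, had the highest CD level of the 31 genes (141 ± 62.0 CPM per kb, SD, n = 4). It was followed by Mal, a proteolipid of membrane traffic (110 ± 47.8), and Mbp, the basic protein that joins the cytoplasmic faces of compact myelin (92.0 ± 46.7). Car2 (carbonic anhydrase), Cnp, Qdpr and Cldn11 came next, between 68.1 and 77.1 CPM per kb. At the other end stood Nkx6-2, a homeobox transcription factor (0.744 ± 0.344), 190-fold below Trf. Of the 30 neighbouring pairs in this order, only 8 kept their order in all 7 libraries. Trf was above Mal in 7 of 7 libraries and Mal above Mbp in 6, whereas Cnp exceeded Qdpr in 2 only, so the places of Car2, Cnp and Qdpr were not separated by these data.

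**Figure D1:**
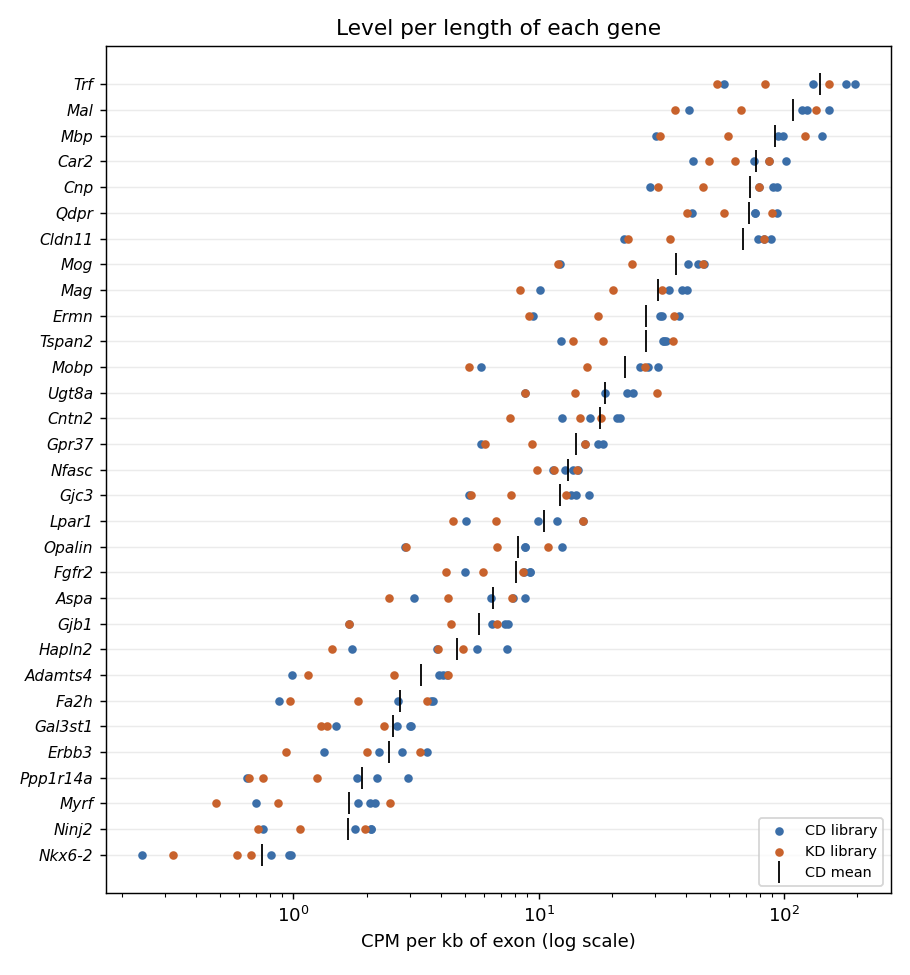
Level per length of the 31 genes, in CPM per kb of exon on a log axis. Each point is a library (blue, CD; orange, KD) and the black tick is the CD mean; Trf is highest and Nkx6-2 lowest, and for most genes the CD points lie as far apart as the CD and KD points.

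The genes of the compact myelin membrane ranged over 2.88-fold to 5.91-fold between libraries. Mobp, an abundant basic protein of myelin (chr9:120149742-120181488, RefSeq on GRCm38.p6), was at 210 CPM in CD replicate 1, 178 in CD replicate 2, 39.9 in CD replicate 3 and 192 in CD replicate 4, against 187, 108 and 35.5 CPM in KD replicates 1 to 3. The highest of these levels was 5.91-fold above the lowest, the widest range of the 31 genes. For Mbp the levels were 1214, 844, 254 and 804 CPM in CD and 1033, 500.0 and 266 CPM in KD. For both genes CD replicate 3 and KD replicate 3 were lowest and KD replicate 2 came next, and the diets overlapped. Cldn11, which builds the tight junctions of the sheath (chr3:31149920-31164326), stood at 146, 155, 41.8 and 167 CPM in CD and at 156, 64.4 and 43.1 CPM in KD, with the lowest values again in the same libraries. Mal and Tspan2, a tetraspanin, ranged over 4.24-fold and 2.88-fold.

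Proteins of the non-compact and surface membranes showed the same order of libraries. Mag, the glycoprotein of the innermost wrap that faces the axon (chr7:30899175-30914922), was at 157, 139, 41.2 and 165 CPM in CD and 129, 81.6 and 34.1 CPM in KD. For Mog, which sits on the outermost surface, the levels were 80.3, 69.3, 20.8 and 76.6 CPM in CD and 79.5, 41.1 and 20.4 CPM in KD. KD replicate 1 lay within the CD values for Mog but below CD replicates 1, 2 and 4 for Mag. Opalin, a membrane protein of mature oligodendrocytes (chr19:41061959-41077113), had 36.8, 26.0, 8.39 and 25.9 CPM in CD and 32.1, 19.9 and 8.49 CPM in KD. Cnp, of the cytoplasmic channels of myelin, and Ermn, a cytoskeletal protein, ranged over 3.28-fold and 4.11-fold. Exons of Cnp overlap those of Dnajc7 on the other strand, and exons of Ermn those of Galnt5, so their counts are less certain because the strand setting of the counting was not stated.

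Enzymes of myelin lipids ranged over 2.33-fold to 4.26-fold. Ugt8a attaches galactose to ceramide to make the main glycolipid of myelin, and its level was 104, 84.4, 39.9 and 111 CPM in CD and 138, 63.7 and 40.1 CPM in KD. KD replicate 1 held the highest Ugt8a level of any library. Gal3st1, the sulfotransferase that turns that lipid into sulfatide, was lowest in both KD replicate 3 and KD replicate 2 (2.65 and 2.79 CPM, against 4.79 CPM in KD replicate 1) and stood at 6.10, 5.42, 3.05 and 6.17 CPM in CD. It was 1 of only 2 genes for which CD replicate 3 and KD replicate 3 were not the lowest pair. Aspa, which frees acetate from N-acetylaspartate, and Fa2h, which hydroxylates the fatty acids of these lipids, ranged over 3.61-fold and 4.26-fold.

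Nkx6-2 was the other exception. Its level was 1.82, 1.54, 0.458 and 1.86 CPM in CD and 1.28, 0.617 and 1.12 CPM in KD, so that KD replicate 3 lay above KD replicate 2. These values rest on 15 to 68 counts, and the 95% interval of the KD replicate 3 level for counting error alone ran from 0.726 to 1.66 CPM. Its exons also overlap those of Inpp5a on the other strand. Myrf, the membrane-bound transcription factor that switches on myelin genes (chr19:10208271-10240777), stood at 15.8, 18.4, 6.04 and 17.5 CPM in CD and 21.1, 7.41 and 4.13 CPM in KD, a range of 5.11-fold.

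The genes of axon contact had unequal ranges. Nfasc, whose neuronal and glial forms gather at the node and the paranode (chr1:132564690-132741848), had 195, 182, 162 and 205 CPM in CD and 203, 163 and 140 CPM in KD. Its range of 1.47-fold was the smallest of the 31 genes and the only one under 2-fold; 30.4% of all tested genes ranged over at least 2-fold. Cntn2, a contactin of the juxtaparanode that neurons express too, was at 194, 151, 116 and 200 CPM in CD and 168, 138 and 71.3 CPM in KD, where KD replicate 3 stood well below CD replicate 3. Hapln2, a matrix link protein of the node, ranged over 5.15-fold. Fgfr2, a growth factor receptor (chr7:130162451-130266808), ranged over 2.20-fold, Car2 over 2.40-fold and Qdpr, a reductase that renews the cofactor biopterin, over 2.32-fold. In the annotation used for lengths, exons of Fgfr2 overlap those of Ctbp2 on the same strand, so its level per length is uncertain.

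The remaining genes kept the common order. The gap junction connexins Gjc3 and Gjb1 ranged over 3.08-fold and 4.45-fold, and Gjb1 (chrX:101376376-101385629) was at 12.8, 11.1, 2.87 and 12.5 CPM in CD and 11.5, 7.46 and 2.87 CPM in KD. Trf ranged over 3.64-fold, Gpr37, an orphan receptor, over 3.17-fold, Lpar1, a receptor for lysophosphatidic acid, over 3.41-fold, and Erbb3, a neuregulin receptor, over 3.75-fold. Adamts4, a secreted protease, was at 19.6, 19.0, 4.76 and 20.3 CPM in CD and 20.5, 12.4 and 5.52 CPM in KD, with exons that overlap another gene on the other strand. Ninj2, an adhesion protein, had 15 to 71 counts in a library and ranged over 2.88-fold.

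Across the 31 genes, one order of libraries recurred more often than over all genes. CD replicate 3 and KD replicate 3 were the 2 lowest libraries for 29 of the 31 genes, against 7.27% of all 15881 genes tested, with KD replicate 2 next for 28 of them (3.37% of all genes). CD replicate 3 was lowest for 14 genes and KD replicate 3 for 17. The median of the 31 genes, taken on the log2 scale from each gene's own median over the 7 libraries, was −1.38 in CD replicate 3, −1.36 in KD replicate 3 and −0.66 in KD replicate 2, and between 0 and 0.25 in the other 4 libraries, while the median of all genes lay between 0 and 0.02 in every library. KD replicate 2 lay below KD replicate 1 and CD replicates 1, 2 and 4 for 30 genes and above CD replicate 3 and KD replicate 3 for 29. KD replicate 1 lay inside the range of CD replicates 1, 2 and 4 for 20 genes, above it for 4 and below it for 7. The heatmap of the 31 genes by library shows these columns.

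**Figure D2:**
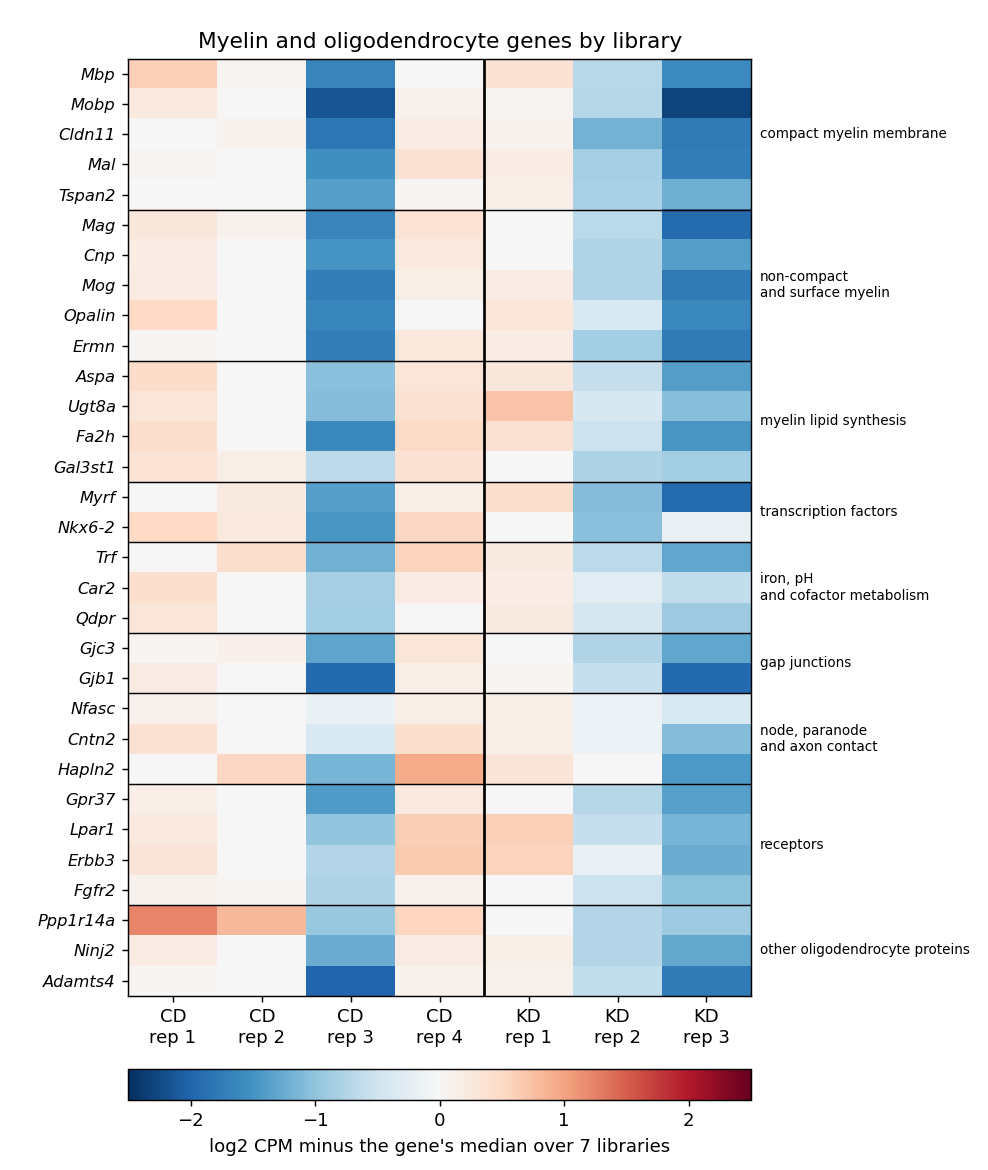
Level of each of the 31 genes in each library, as log2 CPM minus the gene's median over the 7 libraries, grouped by role (blue, below the median; red, above). The columns of CD replicate 3 and KD replicate 3 are blue in almost every row (medians −1.38 and −1.36), that of KD replicate 2 is paler (−0.66), and Nfasc is pale throughout.

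The size of this difference varied with role. In CD replicate 3 and KD replicate 3, the median distance from each gene's own median was −1.66 and −1.72 for the compact membrane genes, −1.65 and −1.76 for the surface genes and −1.63 and −1.62 for the connexins. It was smaller for lipid synthesis (−1.06 and −1.23), for receptors (−0.88 and −1.20) and for metabolism (−0.86 and −0.91). Genes of axon contact were unequal in the pair (−0.38 and −1.08), as were the transcription factors (−1.42 and −1.06). Against the mean of its own diet's other libraries, CD replicate 3 held between 0.206 (Mobp) and 0.835 (Nfasc) of the level, and KD replicate 3 between 0.241 (Mobp) and 1.18 (Nkx6-2). Across the 31 genes, the log2 ratios of these 2 libraries had a correlation of 0.50, given as a description, since genes of 1 library are not independent.

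Promoters are shown for the genes at the ends of this range, to set the sequence beside the widest and the narrowest swings. Of the 31 genes, 24 had a promoter in the RefSeq table for GRCm38.p6. Those with at least 100 counts in every library were ordered by range, and the 250 bases before the start site are printed for the 3 with the widest range (Mobp, Mag and Opalin) and the 2 with the narrowest (Fgfr2 and Nfasc). Of the starts the table lists for a gene, the one farthest upstream was taken. For Nfasc this start lies inside the gene as annotated, and for the other 4 it is the 5′ end of the gene in RefSeq. For Mag and Fgfr2, the bases just after the start were found in no GENCODE transcript of the gene, so these 2 starts are less certain. The sequence runs 5′ to 3′ on the gene's strand. The windows are chr9:120149492-120149741 (plus strand) for Mobp, chr7:30914923-30915172 (minus) for Mag, chr19:41077114-41077363 (minus) for Opalin, chr7:130266809-130267058 (minus) for Fgfr2 and chr1:132707327-132707576 (minus) for Nfasc. Capitals mark the core letters bound by SOX factors (ACAAAG, or CTTTGT on the other strand). They also mark the letters searched for Myrf (CTGGNAC, or GTNCCAG on the other strand), where N was any base. The motifs do not share bases in these windows.
Mobp: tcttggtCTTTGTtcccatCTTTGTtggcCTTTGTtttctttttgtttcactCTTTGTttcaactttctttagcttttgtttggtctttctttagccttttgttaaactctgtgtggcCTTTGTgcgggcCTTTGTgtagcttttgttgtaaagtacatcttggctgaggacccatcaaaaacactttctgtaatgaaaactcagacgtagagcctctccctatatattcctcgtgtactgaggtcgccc
Mag: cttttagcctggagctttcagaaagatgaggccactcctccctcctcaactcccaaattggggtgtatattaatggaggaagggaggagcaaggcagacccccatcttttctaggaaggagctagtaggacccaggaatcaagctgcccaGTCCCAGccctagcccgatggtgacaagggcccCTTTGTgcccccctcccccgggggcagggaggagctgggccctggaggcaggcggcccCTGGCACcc
Opalin: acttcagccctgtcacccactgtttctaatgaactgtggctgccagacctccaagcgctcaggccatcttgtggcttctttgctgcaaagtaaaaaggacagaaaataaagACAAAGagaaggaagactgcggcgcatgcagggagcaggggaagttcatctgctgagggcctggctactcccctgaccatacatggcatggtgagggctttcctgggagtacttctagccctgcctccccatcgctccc
Fgfr2: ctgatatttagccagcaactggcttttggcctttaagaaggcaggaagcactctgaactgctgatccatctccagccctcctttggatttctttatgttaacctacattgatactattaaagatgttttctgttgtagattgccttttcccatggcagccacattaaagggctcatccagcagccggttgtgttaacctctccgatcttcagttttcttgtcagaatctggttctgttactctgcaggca
Nfasc: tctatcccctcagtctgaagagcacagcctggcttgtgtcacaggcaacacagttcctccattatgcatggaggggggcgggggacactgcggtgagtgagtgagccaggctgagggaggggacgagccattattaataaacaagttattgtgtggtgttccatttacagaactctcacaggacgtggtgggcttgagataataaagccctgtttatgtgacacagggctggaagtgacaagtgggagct

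The Mobp window held the SOX letters 6 times, all as CTTTGT, within a T-rich stretch in its upstream part. Mag held them once, with the Myrf letters 2 times, and Opalin held the SOX letters once. Fgfr2 and Nfasc held neither. Over the 24 genes with a window, 5 held the SOX letters (20.8%) against 16.5% of all 27025 genes in the table, and 6 held the Myrf letters (25%) against 15.9%. The SOX letters were in Cnp, Gjb1, Mag, Mobp and Opalin, and the Myrf letters in Cnp, Hapln2, Lpar1, Mag, Mog and Ppp1r14a. Such matches describe letters in a window and not binding.

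Whether the ketogenic diet altered these genes was asked by comparing KD with CD in the fit across all 15881 genes. No gene of the 31 passed. All 31 estimates were lower in KD, against 51% of all genes, but these 31 values share the same libraries and their common order, and do not count as 31 separate observations. None had a raw p under 0.05 by edgeR's quasi-likelihood test, where 1.52% of all genes tested did so with a lower level in KD, and none had an adjusted p under 0.05 (0% of all genes; Benjamini-Hochberg, smallest 0.979 over the 31 genes and over all genes). The median log2 fold change (KD minus CD) of the 31 genes was −0.39, and that of all genes was −0.00.

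The largest estimate belonged to Ppp1r14a, an inhibitor of protein phosphatase 1 (chr7:29289320-29293390). Its level was 4.02, 3.01, 0.885 and 2.49 CPM in CD and 1.71, 1.03 and 0.898 CPM in KD, from 20 to 141 counts. All KD libraries lay below CD replicates 1, 2 and 4, and CD replicate 3 lay below them all. CD replicate 3 and KD replicate 3 were not separated, however. Their 95% intervals for counting error alone ran from 0.592 to 1.27 CPM and from 0.548 to 1.39 CPM. The log2 fold change was −1.09 ± 0.50 (SE), with a 95% confidence interval from −2.24 to 0.06 and a raw p of 0.0598 by edgeR's quasi-likelihood test (adjusted p = 0.979). Gal3st1 followed by raw p (0.097, log2 fold change −0.59 ± 0.32). Mag had −0.60 ± 0.53, Mobp −0.47 ± 0.63 and Mbp −0.36 ± 0.55, and for Mobp and Mbp the error was larger than the difference. Ugt8a had the smallest difference, −0.05 ± 0.45, and Nfasc the smallest error, −0.13 ± 0.14.

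**Figure D3:**
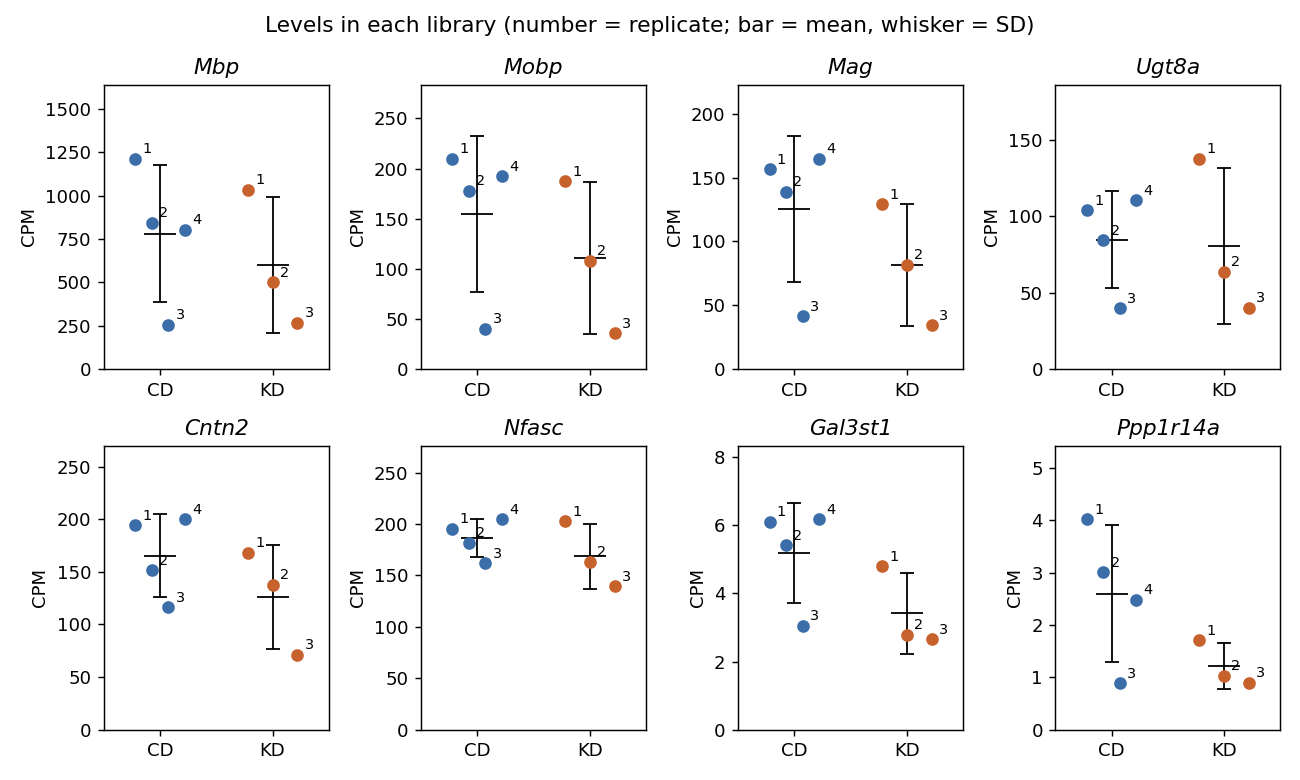
CPM in each library for 8 of the genes, from 0 upward (points, numbered by replicate; bar and whisker, mean and SD). In Mbp, Mobp and Mag replicate 3 is the lowest point of both diets, Nfasc is nearly level, and in Ppp1r14a only CD replicate 3 lies below the 3 KD points.

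What these libraries could resolve was limited for this set of genes in particular. The median SE of the log2 fold change was 0.47 for the 31 genes and 0.16 for all genes. Each of the 31 intervals spanned 0, and 27 reached below −1, a halving of the level, while 0 reached above 1. A lower level of these genes in KD, by as much as 2-fold, was therefore within the intervals of 27 genes, and a doubling lay outside the intervals of all 31. CPM of the 31 genes overlapped between the diets in every case (0 genes without overlap, against 4.2% of all genes).

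The estimates depended on which libraries entered. Without CD replicate 3, all 31 estimates were lower in KD with a median of −0.65, and 3 genes had a raw p under 0.05 (Ppp1r14a, 0.00558; Gal3st1, 0.0228; Gjc3, 0.0411), each lower in KD, where 3.53% of all genes were under 0.05 with a lower level in KD; the smallest adjusted p of the 31 was 0.674. The diets then did not overlap for 7 genes (Mag, Gal3st1, Nkx6-2, Gjc3, Gpr37, Fgfr2 and Ppp1r14a), against 14.4% of all genes. Without KD replicate 3, the median was −0.05 and 25 of the 31 estimates were lower. Without both, 30 of 31 were lower with a median of −0.31, and Mag and Ppp1r14a had raw p values of 0.035 and 0.0168, where 2.36% of all genes were under 0.05 with a lower level (smallest adjusted p of the 31, 0.849). That fit had 3 CD and 2 KD libraries and was chosen after the values were seen. Without KD replicate 1, 5 genes had a raw p under 0.05 (Cldn11, Fgfr2, Gal3st1, Myrf and Ppp1r14a), each lower in KD, where 1.68% of all genes were under 0.05 with a lower level, and the median of the 31 estimates was −0.89. Ppp1r14a, lower in KD, was the 1 gene of the 31 past that raw threshold by the likelihood-ratio test (1.34% of all genes passed with a lower level), by DESeq2 (1.78% likewise) and with no filter beyond 1 count (1.53% likewise).

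A second fit took the RNA level of other oligodendrocyte genes in each library into account. The covariate was the mean log2 CPM of 30 other genes of mature oligodendrocytes, none of them among the 31, such as Sox10, a transcription factor of the lineage. This mean was 5.71, 5.62, 4.45 and 5.64 in CD and 5.62, 5.07 and 4.46 in KD, low in the same libraries as the 31 genes. Since the covariate was itself measured in these mice, the fit compares the 31 genes with the other oligodendrocyte genes and removes any difference that all of them share. In it, 15 of the 31 genes had a higher and 16 a lower estimate in KD (49.3% of all genes were higher), and the median was −0.05. The median SE was 0.13 (0.16 for all genes), smaller than without the covariate for each of the 31. None had a raw p under 0.05, where 2.12% of all genes did.

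At this equal level, the intervals were narrow for the structural genes. Mbp had a log2 fold change of 0.10 ± 0.14 (95% interval −0.22 to 0.43), Mog 0.07 ± 0.08 (−0.11 to 0.26) and Cnp −0.05 ± 0.08 (−0.23 to 0.14). For 29 genes the interval lay inside −1 to 1 and for 22 inside −0.5 to 0.5. The exceptions at the wider limit were Nkx6-2 (−1.15 to 1.06) and Ppp1r14a (−1.34 to 0.14), both of low counts. Adamts4 had the smallest raw p (0.0913, log2 fold change 0.22 ± 0.12), followed by Gal3st1 (0.0959, −0.35 ± 0.19) and Ppp1r14a (0.0969, −0.60 ± 0.32), and the smallest adjusted p of the 31 in edgeR's quasi-likelihood test was 0.99987. Ugt8a, at 0.24 ± 0.13, was the highest estimate. Within lipid synthesis, Ugt8a and Gal3st1, which act in sequence, thus had estimates of opposite sign, neither of them past the test; the difference between them was not tested.

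**Figure D4:**
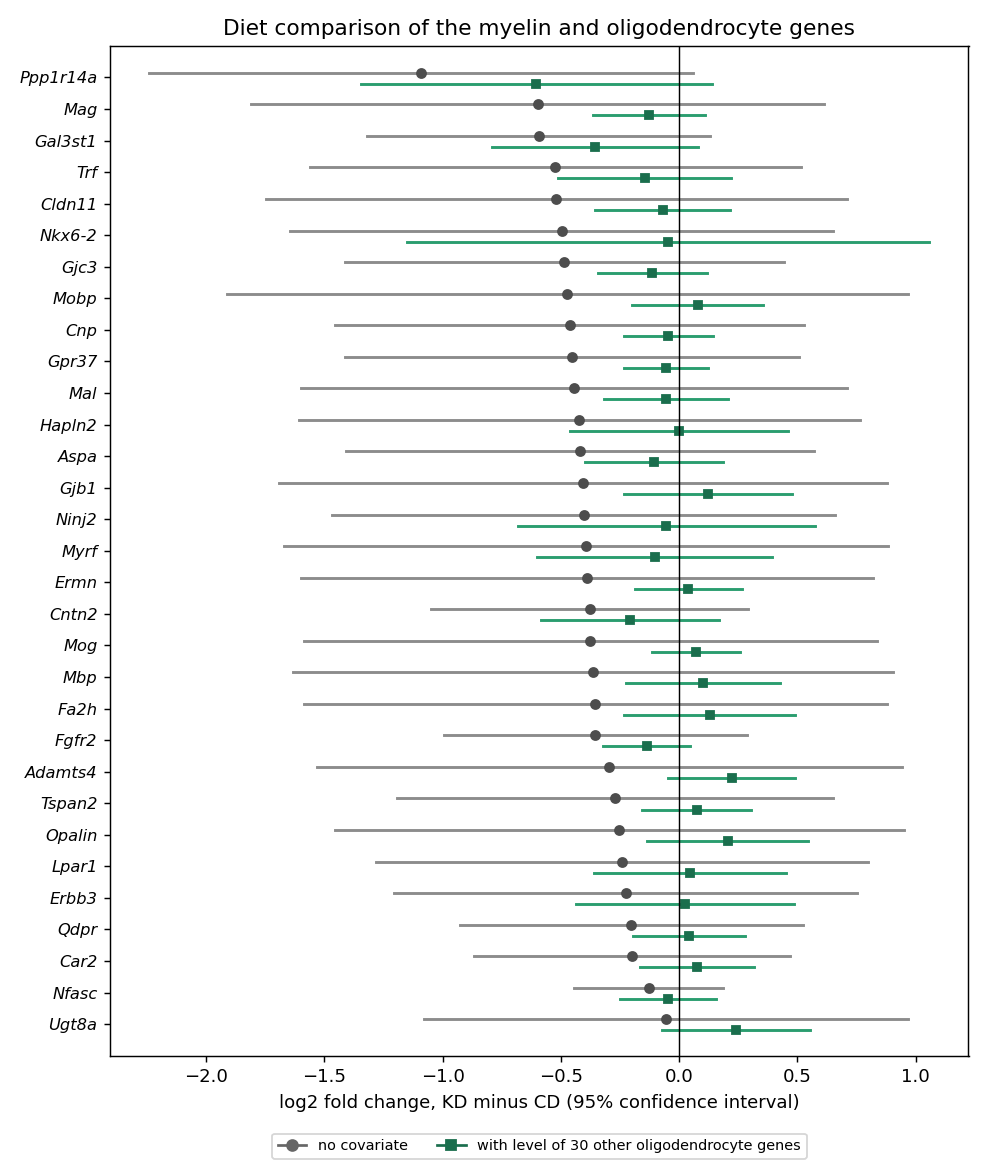
Log2 fold change of KD minus CD for each gene with its 95% confidence interval, without a covariate (grey circles) and with the level of 30 other oligodendrocyte genes (green squares). All grey points lie left of 0 with wide intervals, 15 of the green points lie right of 0, and every interval of both kinds crosses 0.

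The same fit gave, for each gene, the change in its log2 level for 1 log2 unit of the covariate. This slope ran from 0.32 for Nfasc to 1.96 for Mobp with a median of 1.27. It was over 1.5 for 11 genes and under 1 for 7 (Nfasc, Cntn2, Gal3st1, Fgfr2, Car2, Qdpr and Nkx6-2). By role, the median slope was 1.59 for both the compact and the surface genes, 1.46 for the connexins, 1.25 for lipid synthesis, 1.20 for receptors, 0.88 for metabolism and 0.73 for axon contact. The 30 genes of the covariate were themselves unequal, with slopes from 0.11 (Efnb3) to 2.07 (Klk6). A slope over 1 is thus relative to the mean of those genes and not to the number of oligodendrocytes. The slopes describe the same 7 libraries and have no test.

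Genes around the myelin programme were read in the same libraries, from lists that hold none of the 31. Of the 30 other oligodendrocyte genes, 28 had a lower estimate in KD and 24 had CD replicate 3 and KD replicate 3 as the lowest pair. Raw p values under 0.05 by edgeR's quasi-likelihood test were those of Apod, a lipid-binding protein (0.0398, log2 fold change −1.02), and Tubb4a, a tubulin of oligodendrocytes and neurons (0.0265, −0.39), with an adjusted p of 0.979 each. Apod stood at 510.0 CPM in CD replicate 4, over 2 times its next highest level, and its estimate without that library was −0.52.

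Precursor cells did not share the pattern as a list. Among 10 genes of oligodendrocyte precursors and newly forming cells, Bcas1 and Enpp6, which mark cells that begin to myelinate, were lowest in CD replicate 3 and KD replicate 3. Bcas1 had 118, 80.6, 23.0 and 69.6 CPM in CD and 105, 57.2 and 21.1 CPM in KD, with its lowest levels in the same 3 libraries as Mbp. Pdgfra, the growth factor receptor of precursors, had 79.0, 81.9, 76.9 and 119 CPM in CD and 85.2, 75.9 and 117 CPM in KD; its level in KD replicate 3 was among the highest of the 7, while those in KD replicate 2 and CD replicate 3 were the lowest by a small margin. Sox6, a precursor transcription factor, had a raw p of 0.018 by edgeR's quasi-likelihood test with a log2 fold change of 0.34 (adjusted p = 0.979).

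Axonal partners and the general supply of lipid also differed from the myelin genes. Of 14 tested genes of the axon beneath myelin, 10 had a lower estimate in KD and none a raw p under 0.05; their median in KD replicate 3 was −0.30 from each gene's own median and in CD replicate 3 was 0.00. Kcna1, the potassium channel of the juxtaparanode, which Cntn2 helps to place, was at 497, 474, 421 and 437 CPM in CD and 401, 395 and 223 CPM in KD, and only KD replicate 3 stood far below the rest. Of 15 genes that supply lipid, 9 were higher in KD by their estimates, among them Sqle, an enzyme of cholesterol synthesis (log2 fold change 0.24, raw p value 0.02), with an adjusted p of 0.979 by edgeR's quasi-likelihood test. Its lowest levels were not in CD replicate 3 and KD replicate 3. Serpina3n, C4b and 4 more genes of disease-associated oligodendrocytes gave 3 higher and 3 lower estimates, and none had a raw p under 0.05.

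Genes of other cells and layers were set beside these, since a piece of cortex can hold more or less of each. In CD replicate 3 the list medians lay between −0.32 (deep cortical layers) and 0.13 (excitatory neurons), and in KD replicate 3 between −0.72 (upper layers) and 0.85 (striatum), against −1.38 and −1.36 for the 31 genes. The summed level of the 9 deep-layer genes was 272, 302, 227 and 297 CPM in CD and 295, 260.1 and 289 CPM in KD, and that of 11 astrocyte genes ranged from 5662 to 6464 CPM in CD and from 5205 to 7701 CPM in KD. For the deep-layer and astrocyte genes CD replicate 3 was the lowest CD library. The part of tissue sampling in the levels of the myelin genes was not tested, and neither was that of RNA quality, for which no value was at hand. Other genes with a raw p under 0.05 in these lists were Csf1r (0.0396) and Itgam (0.0181) of microglia and Rprm of deep layers (0.0451), with higher estimates in KD, and Gad1 of inhibitory neurons (0.0138) and Gjb6 of astrocytes (0.0499), with lower ones, all with an adjusted p of 0.979 by edgeR's quasi-likelihood test. The log2 fold change of Rprm was 0.86, and 0.19 without both replicates 3. For Gjb6 it was −0.43, and −0.22 without CD replicate 4. Without CD replicate 4, Csf1r, Itgam and Gad1 had 0.29, 0.36 and −0.27.

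**Figure D5:**
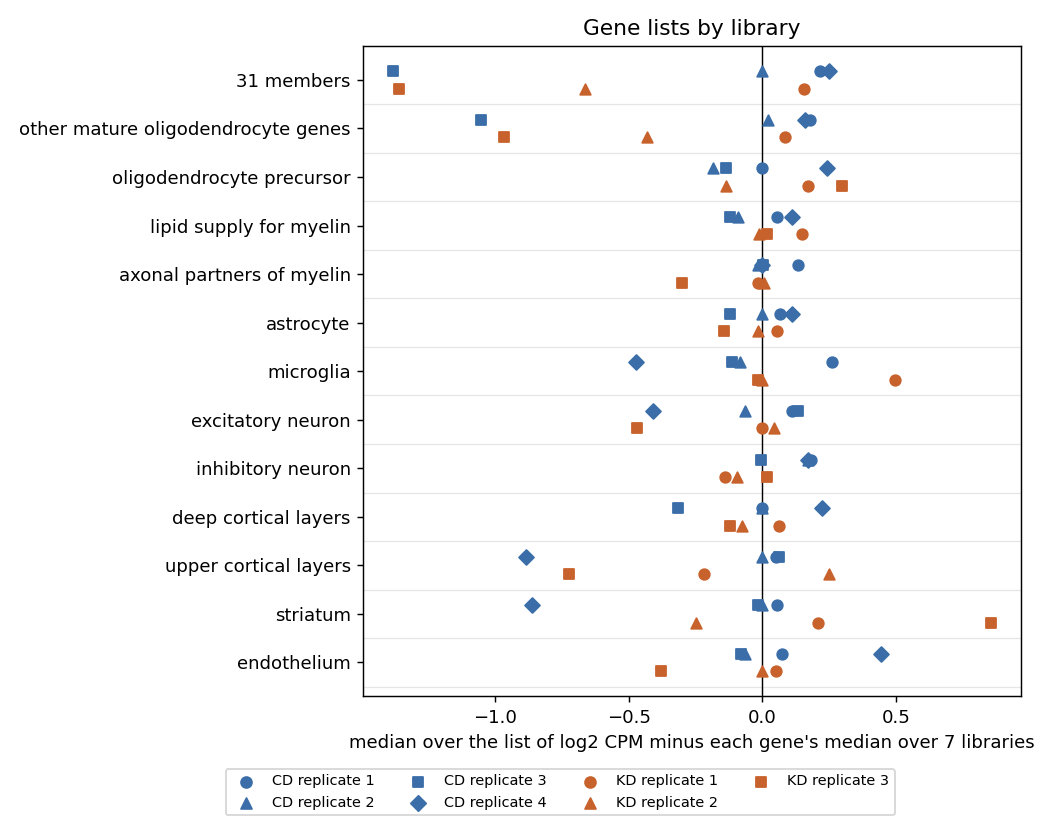
Median of each gene list in each library, as log2 CPM minus each gene's median over the 7 libraries (blue, CD; orange, KD; marker shape, replicate). In the 31 genes and the other oligodendrocyte genes CD replicate 3, KD replicate 3 and KD replicate 2 lie to the left, and no other list places both replicates 3 below −0.5.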

How the data were processed

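Per the labels and the study's methods, total RNA from 10 mg of frozen cortex per mouse (300 ng per library) was made into stranded libraries and read as 50 bp pairs; the authors aligned the reads to mm10 with STAR and counted them per gene with HTSeq counting as built into STAR. The deposited values were raw read counts per gene symbol, not normalized. The tool versions, annotation and strand setting of the counting are not given in the sources used here. Replicates differed by more than sampling noise (chi-square per gene 16.1 to 68.3), so none was counted as a repeat.

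Counts of all genes were fitted with edgeR 4.0.16 (R 4.3.3) (filterByExpr, which left 15881 genes; TMM; robust glmQLFit; glmQLFTest, KD against CD, no covariate), with Benjamini-Hochberg adjustment over all genes tested. The study names edgeR and TMM and a raw p of at most 0.01; its test and filter are not named. CPM are counts scaled to a library total of 1000000. Exon lengths came from GENCODE M21, gene positions and promoters from RefSeq GRCm38.p6, the build called mm10. The fit was also tried on simulated counts for KD against CD, at an adjusted p under 0.05. It recovered 62.2% of the 196 tested genes given a log2 change of 1, among 15716 genes in all. Of the 198 tested genes given a log2 change of 2, among 15751 genes in all, it recovered 82.8%. These shares were not taken for the genes of myelin and of mature oligodendrocytes alone. For those, the median SE of the log2 fold change in the real counts was 0.47, against 0.16 for all genes. The simulated shares therefore do not give the recovery for the myelin and oligodendrocyte genes.

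Totals ranged from 22272883 to 36614954 counts; intervals for single libraries cover counting error only. The 31 genes, and the 14 further lists, were chosen with earlier results of these data known. All 31 genes are named; of other lists, genes with a raw p under 0.05 (some are not reported here), and the most abundant or defining ones where a level is described. Slc17a7, Camk2a, Sox10, Bcas1, Enpp6, Pdgfra, Kcna1, Serpina3n, C4b, Pmp2, Prx, Ncmap and Egr2 were named after their values were seen where this rule did not name them. Alternatives were other scalings (RLE, upper-quartile, library size), other filters, the likelihood-ratio test, DESeq2 1.42.0, limma-voom 3.58.1, a replicate block, the oligodendrocyte covariate, each library left out, and, chosen after seeing the data, both replicates 3 left out and replicates 1 to 3 without the block.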

Additional observations from a re-analysis of the deposited data

Results flagged for a closer look

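In 15 of the 31 genes, CD replicate 3 stood so far below the other 3 CD libraries on the log2 scale that its gap to the nearest of them took up a share of the whole CD range above the critical value of Dixon's test for 4 samples. Chance alone would pass about 1 in 20 such groups, or 1.55 of 31, but the genes share their libraries and are not separate tests. Only the 31 genes were examined in this way. The share of all genes that would pass is not known, so the count cannot be set against it. The gap over range was 0.973 for Tspan2, 0.954 for Adamts4, 0.913 for Fgfr2, 0.907 for Cldn11, 0.904 for Gjb1 and 0.9 for Mobp. It was 0.89 for Mog, 0.876 for Mag, 0.869 for Ermn, 0.866 for Nkx6-2, 0.862 for Cnp, 0.86 for Myrf, 0.855 for Ninj2, 0.852 for Gpr37 and 0.847 for Gjc3. In all 15 the outlying library was CD replicate 3. Groups of 3 libraries, such as KD, were not tested in this way.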

How the results depend on the processing

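The median log2 fold change of the 31 genes stayed below 0 in each of the alternatives run, and no gene of the 31 had an adjusted p under 0.05 in any of them. Over all genes, 0 had an adjusted p under 0.05 by edgeR's quasi-likelihood test (506 with a raw p under 0.05), 0 by DESeq2 and limma-voom, and 1 by the likelihood-ratio test. At the raw threshold of 0.01, 51 genes passed, against 103 by the likelihood-ratio test, 120 by DESeq2, 182 with the replicate block, 33 in replicates 1 to 3 without it, 33 with the covariate, 156 without both replicates 3, and 19 to 211 with 1 library left out, the fewest without CD replicate 1 and the most without CD replicate 3. The study reported more genes at that threshold than any of these fits gave, and the reason was not tested. Of the 31 genes, those with a raw p under 0.05 numbered 0, against 1 (Ppp1r14a) with no filter, by the likelihood-ratio test and by DESeq2, 2 without both replicates 3, 6 with the replicate block (Mag, Mobp, Aspa, Cntn2, Fgfr2 and Ppp1r14a, all lower in KD, where 2.71% of all genes passed with a lower level) and from 0 to 5 with 1 library left out (5 without KD replicate 1: Cldn11, Fgfr2, Gal3st1, Myrf and Ppp1r14a, all lower in KD, where 1.68% of all genes passed with a lower level).

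With the covariate, the sign turned to higher in KD for Mbp (0.10), Mobp (0.079), Tspan2 (0.074), Mog (0.071), Opalin (0.20), Ermn (0.039), Ugt8a (0.24), Fa2h (0.13), Car2 (0.075), Qdpr (0.043), Gjb1 (0.12), Hapln2 (0.00015), Lpar1 (0.047), Erbb3 (0.024) and Adamts4 (0.22). With 1 library left out, 6 genes changed sign over the range of their estimates: Opalin (−0.75 to 0.12), Ugt8a (−0.69 to 0.27), Qdpr (−0.56 to 0.038), Lpar1 (−0.89 to 0.081), Erbb3 (−0.72 to 0.12) and Adamts4 (−0.80 to 0.067). Ugt8a was also higher in KD without both replicates 3 (0.043) and in replicates 1 to 3 without the block (0.082). The cause of these changes was not tested. The labels do not say whether replicate numbers pair the libraries. Deviations from the group means correlated at 0.24, 0.179 and 0.0934 for equal numbers. KD replicates 2 and 3 each correlated better with another number. These correlations cannot show how the mice were handled, and the main fit used no pairing. In all, 543 of 589 estimates kept their direction and side of the threshold. Low counts limit Nkx6-2, Ninj2 and Ppp1r14a.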
